A study of Mus musculus with 4 samples.

Results

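The genes that make, convert, clear and sense the chemoattractant oxysterol 7-alpha,25-dihydroxycholesterol were followed in sorted plasmacytoid dendritic cells. The members are Ch25h, Cyp7b1, Hsd3b7, Cyp27a1 and the receptor gene Gpr183, 5 of the 27179 genes in the count table, taken by their symbols. All 5 symbols were found, and 4 of the 5 genes had enough counts to pass the filter on low counts. The members were chosen with their difference between the sorted populations already known, so their values in that comparison are given as a description with no test.

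Oxysterols are oxidised forms of cholesterol. Ch25h adds a hydroxyl group to the side chain of cholesterol, Cyp7b1 adds a further hydroxyl group to the steroid ring, and the product is the strongest known ligand of Gpr183, a G-protein-coupled receptor also called EBI2. Hsd3b7 oxidises the ligand to forms that no longer attract cells. Cyp27a1 is a mitochondrial cytochrome P450 that hydroxylates the side chain at another carbon, giving a second substrate of Cyp7b1. The pathway is known for positioning B cells, dendritic cells and T cells within lymphoid organs, and Ch25h is known in macrophages as a gene induced by interferon.

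Plasmacytoid dendritic cells are the main interferon-producing cells of the blood and lymphoid organs and sense viral nucleic acids in endosomes. Precursors from the bone marrow of C57BL/6 mice grew for 8 days in medium with Flt3-ligand, which drives dendritic cell development, and all cultures were then exposed for 24 h to imiquimod (IMQ), a TLR7 agonist, at 1 µg/ml. Cells were sorted with SiglecH and CD11b and divided by BFP, a blue fluorescent reporter of Cxcl10, into BFP-negative cells (libraries N1 and N2 below) and BFP-positive cells (P1 and P2), 2 replicates each. Both groups therefore share the strain, the culture, the reporter and the stimulus, and as labelled they differ by the reporter signal; no unstimulated library was analysed here. The labels do not say where the gates lay, or whether the 2 libraries of a group came from separate animals, so p-values measure only the spread between these libraries, which may be technical. N1 and P1 share one code in their titles and N2 and P2 another, and what the codes stand for is not given. The sample labels and the design text disagree on whether the BFP-negative population was CXCL10-positive, and only the BFP label was used. How far cultured cells stand for those of a tissue was not measured.

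Library totals ran from 11868254 to 12570117 counts. The reporter's gene Cxcl10 had 3 and 19 counts in the BFP-negative libraries and 149 and 154 in the BFP-positive ones, which checks the labels. Siglech was at 611 and 615 CPM (counts scaled to library size with TMM factors) in BFP-negative and 785 and 820.3 CPM in BFP-positive libraries, and Bst2 was between 1567 and 1867 CPM, so the defining markers of the labelled cell type were present. For CD11b, the Itgam transcript stood at 1.77 and 4.10 CPM in N1 and N2 and at 9.61 and 10.6 CPM in P1 and P2.

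Cyp7b1 and Gpr183 stood far apart between the populations, Hsd3b7 and Cyp27a1 by little more than a doubling, and Ch25h was nearly absent. In each of the 4 members that passed the filter, both BFP-positive libraries lay above both BFP-negative libraries; over all 11706 genes tested, 27.1% had that arrangement. Because the members were chosen on this contrast, that count carries no further reading. Levels below are CPM in single libraries, and each log2 difference is BFP-positive over BFP-negative from the fit over all genes, with its standard error (SE). In bulk RNA, fewer cells that express a gene and less RNA per cell cannot be told apart.

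The enzyme that starts the pathway was the least abundant member. Ch25h (Entrez gene 12642; chromosome 19, 34473783 to 34475148 on GRCm38, a gene with 1 exon) had 0 counts in both BFP-negative libraries, 14 counts in P1 and 0 in P2. The 14 counts correspond to 1.20 CPM, with an exact 95% Poisson interval of 0.657 to 2.02 CPM. For a count of 0 no such interval was computed, and a fixed limit of 3 counts was used, or 0.237 to 0.257 CPM depending on the library. Those limits cover counting error only, since the libraries were amplified by PCR without molecular identifiers. Counts for Ch25h were therefore seen in a single library of the 4, and no group difference is given. In the GENCODE annotation 159 exon bases of Ch25h are shared with a transcript on the opposite strand, Gm26902. The library kit does not mark strand, so reads of Gm26902 over those bases cannot be told apart from those of Ch25h here.

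Cyp7b1 (Entrez gene 13123; chromosome 3, 18071944 to 18243890), the hydroxylase that completes the ligand, was among the lowest genes in one population and well expressed in the other. It had 10 and 18 counts in the BFP-negative libraries and 558 and 748 in the BFP-positive ones, or 0.804 and 1.42 CPM against 47.9 and 61.6 CPM. The lowest BFP-positive library was 33.7-fold above the highest BFP-negative library, whereas libraries of the same group differed at most 1.77-fold. The log2 difference was 5.61, SE 0.35, which is 48.7-fold and rank 90 by size of increase among the genes tested. Leaving out N1 gave 5.26 and leaving out N2 gave 6.09, the range over single libraries.

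Gpr183 (Entrez gene 321019; chromosome 14, 121952331 to 121965193), the receptor, was the most abundant member in BFP-positive cells. BFP-negative libraries held 289 and 350 counts (23.2 and 27.6 CPM) and BFP-positive libraries 2402 and 2725 counts (206 and 224 CPM). Replicates differed by at most 1.19-fold, and the populations by 8.47-fold (log2 difference 3.08, SE 0.17). The gene overlaps the span of Ubac2 on the opposite strand without sharing an exon base, and the library kit does not mark strand. Ubac2 itself was at 82.8 and 87.2 CPM in N1 and N2 and at 103 and 115 CPM in P1 and P2. Its part in the counts of Gpr183 was not tested.

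**Figure D1:**
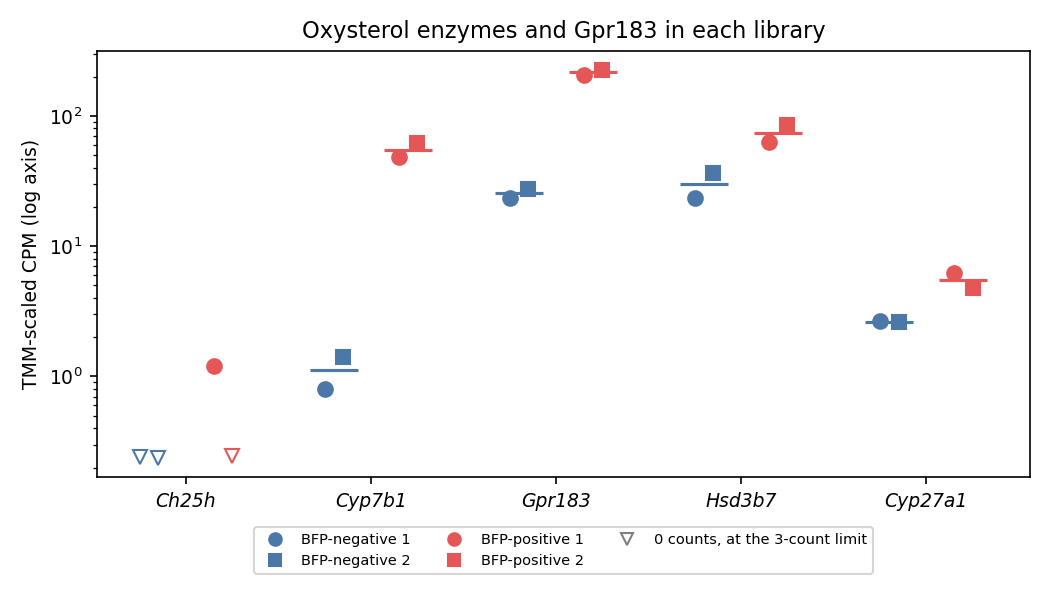
TMM-scaled CPM (log axis) of the 5 genes in each library: circles are replicate 1, squares replicate 2, horizontal bars group means of 2 libraries, and open triangles libraries with 0 counts drawn at the limit of 3 counts. Cyp7b1 moves from 0.804 and 1.42 to 47.9 and 61.6 CPM and Gpr183 from 23.2 and 27.6 to 206 and 224 CPM, while Ch25h has counts only in P1.

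Hsd3b7 (Entrez gene 101502; chromosome 7, 127800609 to 127803802), which clears the ligand, was expressed in both populations. Its BFP-negative libraries held 294 and 459 counts (23.6 and 36.2 CPM) and its BFP-positive libraries 735 and 1032 counts (63.1 and 84.9 CPM). The groups did not overlap, but the gap was narrow beside the spread: the lower BFP-positive library was 1.74-fold above the higher BFP-negative library, and the BFP-negative libraries differed 1.53-fold. The log2 difference was 1.31, SE 0.25 (2.47-fold), and it ran from 1.04 to 1.67 as single libraries were left out, the lowest without N1 and the highest without N2. In the GENCODE annotation 1729 exon bases of Hsd3b7 are shared with a transcript on the opposite strand, 9430064I24Rik, and 1717 with the same-strand gene Gm49388. Reads from these cannot be told apart from those of Hsd3b7 here.

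Cyp27a1 (Entrez gene 104086; chromosome 1, 74713148 to 74737897), the mitochondrial hydroxylase, was low throughout. It had 33 counts in each BFP-negative library and 73 and 58 in the BFP-positive ones, or 2.65 and 2.60 CPM against 6.27 and 4.77 CPM. Its log2 difference was 1.07, SE 0.57 (2.10-fold), and it was 0.86 without P1. The SE was the widest of the 4, beside 0.25 for Hsd3b7.

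**Figure D2:**
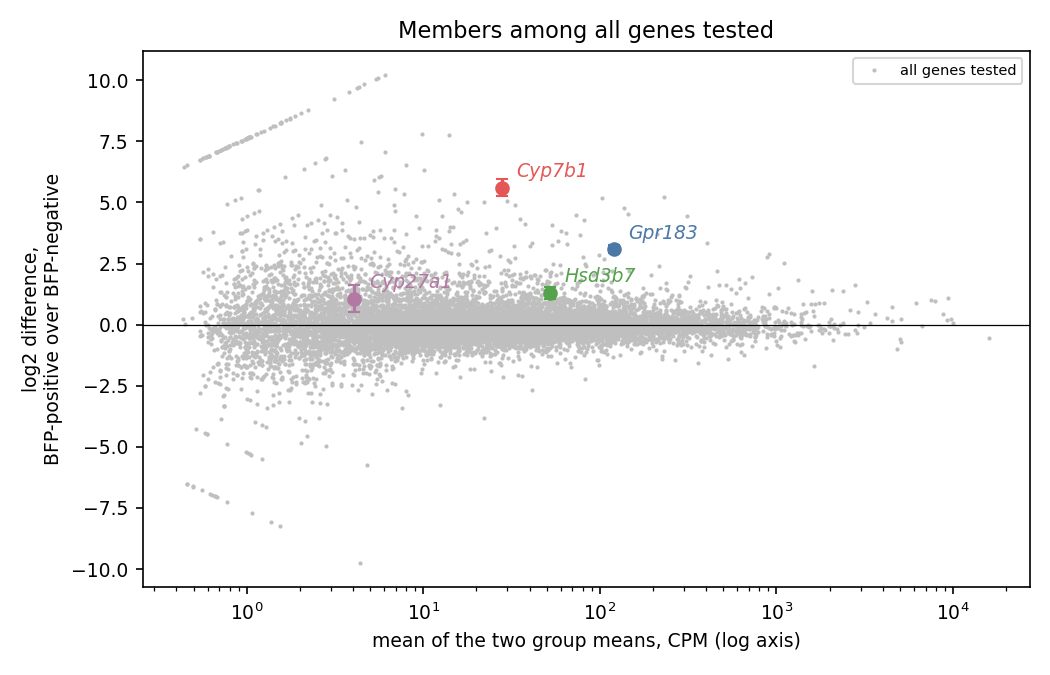
Log2 difference (BFP-positive over BFP-negative) against the mean of the group means in CPM (log axis) for all 11706 genes tested in grey, with the 4 tested members in colour and their SE as bars. Cyp7b1 (5.61) and Gpr183 (3.08) lie above the main cloud, Hsd3b7 (1.31) at its upper edge and Cyp27a1 (1.07) within it.

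Promoter sequences are shown for Gpr183, the member with the largest difference that has an entry in the RefSeq promoter table (GRCm38.p6), and for Hsd3b7, whose window holds a match to a searched motif. Each window runs from 250 bases before to 50 bases after the start, 5′ to 3′ on the strand of the gene, and capitals mark motif matches. Gpr183 lies at chr14:121965144-121965443 on the minus strand and Hsd3b7 at chr7:127800359-127800658 on the plus strand.
Gpr183: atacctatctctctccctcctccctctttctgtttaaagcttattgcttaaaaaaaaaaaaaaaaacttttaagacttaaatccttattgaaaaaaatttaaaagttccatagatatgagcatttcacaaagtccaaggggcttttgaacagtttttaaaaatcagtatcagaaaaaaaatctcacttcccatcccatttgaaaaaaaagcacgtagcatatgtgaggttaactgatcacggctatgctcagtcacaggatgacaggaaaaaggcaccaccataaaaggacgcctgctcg
Hsd3b7: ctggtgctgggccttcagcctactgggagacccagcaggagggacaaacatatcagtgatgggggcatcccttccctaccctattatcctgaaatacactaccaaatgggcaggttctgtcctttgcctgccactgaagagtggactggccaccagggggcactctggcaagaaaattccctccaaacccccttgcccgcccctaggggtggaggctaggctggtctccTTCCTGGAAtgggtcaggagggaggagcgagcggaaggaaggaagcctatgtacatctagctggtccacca

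The Gpr183 window was poor in G and C (35.3%, against 57.7% for Hsd3b7 and a median of 52.7% over all windows). On both strands 9 motifs were searched in 32851 windows, and 4 of the 5 members had one. The capitals in Hsd3b7 are a TTCNNNGAA match, the form of a gamma-activated site bound by Stat factors, from 21 bases before the start; 8.30% of all windows hold such a match. The Ch25h window held a cyclic AMP response element (TGACGTCA, in 1.79% of windows) and the letters TATAAA (13.6%). None of the 4 windows held an interferon-stimulated response element (GAAA, any 2 bases, GAAA, 3.44%), an NF-kB site (0.411%), a nuclear receptor half-site (AGGTCA, 16.3%), a sterol regulatory element (TCACNCCAC, 1.24%), an AP-1 site (TGANTCA, 7.81%) or an E-box (CACGTG, 7.15%). A match is a string of letters and not a measured site, and none of these motifs overlap one another in the windows.

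Levels of different genes were compared per length, with the authors' log2 RPKM. In BFP-negative cells the order was Hsd3b7 (3.75 and 4.32), Gpr183 (3.03 and 3.24), Cyp27a1 (0.55 and 0.48) and Cyp7b1 (-1.35 and -0.58). In BFP-positive cells it was Gpr183 (6.10 and 6.21), Hsd3b7 (5.09 and 5.50), Cyp7b1 (4.44 and 4.79) and Cyp27a1 (1.71 and 1.30). Thus Gpr183 passed Hsd3b7, and Cyp7b1 passed Cyp27a1, between the populations. Among the genes tested, 9.55% had a lower mean log2 RPKM than Cyp7b1 in BFP-negative cells and 72.0% in BFP-positive cells, and for Gpr183 the shares were 52.8% and 86.7%.

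Neighbours in this order did not overlap between libraries, but the length used for Hsd3b7 matters. With the merged exon lengths of GENCODE, its mean log2 RPKM was 3.43 in BFP-negative cells, beside 3.16 for Gpr183, and 4.69 in BFP-positive cells, beside 4.61 for Cyp7b1. Those neighbours then differed by less than the spread of Hsd3b7 between libraries (SD 0.408 and 0.293). By group means, Gpr183 crossed Hsd3b7 and Cyp7b1 crossed Cyp27a1 with either length. With GENCODE lengths, however, the order of Gpr183 and Hsd3b7 in BFP-negative cells lay within that spread, so their crossing was not resolved.

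The ratio of the enzyme that completes the ligand to the enzyme that clears it differed less within each population than between them. In the BFP-negative libraries it rests on 10 and 18 counts of Cyp7b1, too few to show that it was steady. RPKM of Cyp7b1 divided by that of Hsd3b7 was 0.0292 and 0.0334 in the BFP-negative libraries and 0.639 and 0.610 in the BFP-positive ones. In BFP-negative cells the clearing enzyme's transcript was thus 34.2-fold and 29.9-fold above that of Cyp7b1, and in BFP-positive cells 1.56-fold and 1.64-fold. The receptor moved against Hsd3b7 as well, with ratios of 0.609 and 0.473 and then 2.02 and 1.64. These are transcript ratios on the authors' lengths, and no enzyme activity or oxysterol was measured. With GENCODE lengths, the mean log2 RPKM in BFP-positive cells was 4.69 for Hsd3b7 and 4.61 for Cyp7b1. Reads of Hsd3b7 also cannot be told apart from those of the genes that share its exon bases.

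**Figure D3:**
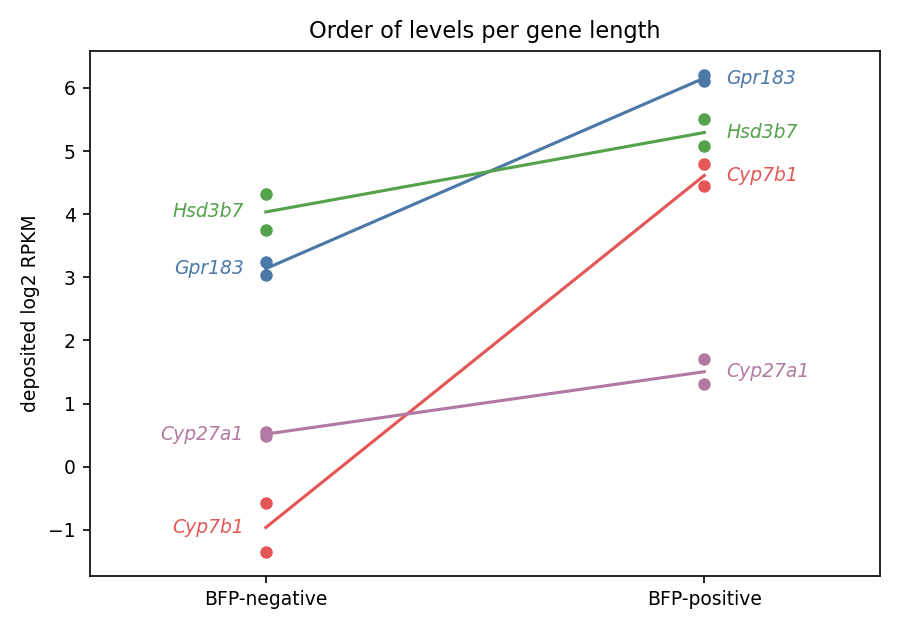
Deposited log2 RPKM of the 4 expressed genes in BFP-negative and BFP-positive libraries; each point is a library and each line joins the group means of 2 libraries. The line of Gpr183 crosses that of Hsd3b7, and the line of Cyp7b1 climbs from a mean of -0.96 to 4.61 and crosses that of Cyp27a1.

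Genes of the same pathways were taken from 4 lists, of which none holds a member, and were tested in edgeR's quasi-likelihood fit over all genes with Benjamini-Hochberg adjustment. Of all 11706 genes, 7.60% passed as higher in BFP-positive cells and 3.51% as lower, and the median log2 fold change was -0.02. The lists were drawn up with earlier results of these libraries known, so they are not independent evidence, and they are described by counts and medians beside these shares.

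Other enzymes of oxysterol and bile acid metabolism were mostly silent or not called. Of 29 genes, 9 had no count in any library, among them Cyp7a1, the rate-limiting enzyme of bile acid synthesis, and the sterol hydroxylase genes Cyp39a1 and Cyp46a1. Of all 27179 genes in the count table, 13219 to 13533 had a count in a given library, so genes without counts were common. Of the 18 enzymes tested, 1 rose and 1 fell (5.56% each), with a median log2 fold change of -0.11. Those shares lay near the 7.60% higher and 3.51% lower of all genes tested. Soat1, which esterifies cholesterol for storage, rose from 56.7 and 54.7 to 129 and 161 CPM (1.38 on the log2 scale, SE 0.17, adjusted p = 0.000609). Hsd11b1, which reduces cortisone-type steroids and also 7-keto sterols, fell from 113 and 124 to 59.7 and 64.5 CPM (-0.93, SE 0.16, adjusted p = 0.00453). The groups did not overlap in either gene. Ebp, a sterol isomerase, was the most abundant that did not pass, at 178 and 163 CPM in N1 and N2 and 178 and 195 CPM in P1 and P2.

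Among oxysterol receptors, binding proteins and targets of the oxysterol-sensing LXR factors, 3 of 26 tested rose and 2 fell, with a median of 0.13. Arl4c, a small GTPase gene, rose from 0.884 and 0.158 to 15.3 and 11.5 CPM (4.66 on the log2 scale, SE 0.68, adjusted p = 0.00175). Without N1 this was 6.32 and without N2 3.93. Pltp, a phospholipid transfer protein gene, rose 1.67-fold to 1218 ± 87.1 CPM (SD, n = 2), and Npc2, which moves cholesterol out of lysosomes, rose 1.60-fold to 821 ± 1.84 CPM (adjusted p = 0.00339 and 0.00367).

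Apoe, the apolipoprotein gene, went the other way from these targets, from 10.7 and 17.0 to 1.46 and 1.15 CPM (-3.40, SE 0.49, adjusted p = 0.00172). Ccr7, the lymph node homing receptor, fell 1.30-fold to 2131 ± 175 CPM (-0.37, SE 0.11, adjusted p = 0.0487). Leaving out N2, P1 or P2 ended that call (adjusted p = 0.116, 0.371 and 0.115), as did scaling with DESeq2's size factors and robust dispersion in edgeR (adjusted p = 0.0640 and 0.0643). Rxrb, a nuclear receptor partner of LXR, was at 133 ± 24.9 and 161 ± 1.30 CPM, not past the threshold. Genes of this list thus moved both ways, with 21 of 26 not called.

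The Srebf2 pathway, which drives cholesterol synthesis and is known to be restrained by side-chain oxysterols, showed 0 rises and 1 fall among 20 tested genes, with a median of -0.17. Mbtps1, the protease that first cuts Srebf2, fell from 113 and 128 to 63.0 and 85.6 CPM (-0.70, SE 0.18, adjusted p = 0.0367). Leaving out N2 or P1 ended the call (adjusted p = 0.0984 and 0.243). Fdps, a synthesis enzyme, was at 539 and 544 against 416 and 407 CPM and lay at the threshold (-0.40, SE 0.11, adjusted p = 0.0507 in edgeR). Its adjusted p ran from 0.00808 in the blocked edgeR fit to 0.288 without P2, and it also passed in edgeR with library totals (0.0255) and robust dispersion (0.0452), in limma-voom (0.0362) and in DESeq2 (0.0117). The number of falls in this list was 5 in a fit blocked on replicate number, 4 with DESeq2 or limma-voom, and 0 when N2 or P1 was left out. In the main fit the 1 fall was 5% of the tested genes, near the 3.51% of all genes called lower. The fits with more falls in this list also called more genes lower over all genes. Those totals were 760 with the replicate block, 561 with DESeq2 and 453 with limma-voom, beside 411 in the main fit. At an unadjusted p under 0.05 in edgeR, 0 of its genes were higher and 7 lower. The share of all genes at that cutoff was not counted, so no reading is given to these numbers. DESeq2 called no gene of the list higher.

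Genes of inhibitory G-protein signalling, of its Rgs, Grk and arrestin regulators, and of other chemotactic receptors rose in 10 of 29 cases and fell in 2, with a median of 0.45. Rgs1, which shortens signalling by such receptors, rose 7.99-fold, from a mean of 5.21 to 42.5 and 40.9 CPM (SE 0.28 on the log2 scale, adjusted p = 0.000127). P2ry10, a receptor for lysophospholipids, rose 4.17-fold to 152 ± 24.8 CPM, and Ccr2, a chemokine receptor of monocytes, 3.05-fold to 155 ± 24.5 CPM (adjusted p = 0.000127 and 0.000426). Further rises were in Rgs2, Rgs14, Arrb2, Grk6, Gnb2 and Gnai2, with log2 fold changes from 0.45 to 1.19. Gnai2, the main inhibitory G-protein subunit of leukocytes, was the smallest of them.

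Ccr9, a gut-homing receptor, fell from 915 and 975 to 519 and 501 CPM (-0.89, SE 0.11, adjusted p = 0.000722). S1pr3, a sphingosine phosphate receptor, fell from 23.5 and 22.1 to 9.53 and 4.03 CPM (-1.75, SE 0.41, adjusted p = 0.0215), and that call was lost without P2 (-1.26, adjusted p = 0.0602). Gnb1 was at 447 ± 8.51 and 478 ± 33.8 CPM and was not called. The count of rises rested in part on single libraries, with 6 when N1 was left out and 4 when P2 was left out.

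**Figure D4:**
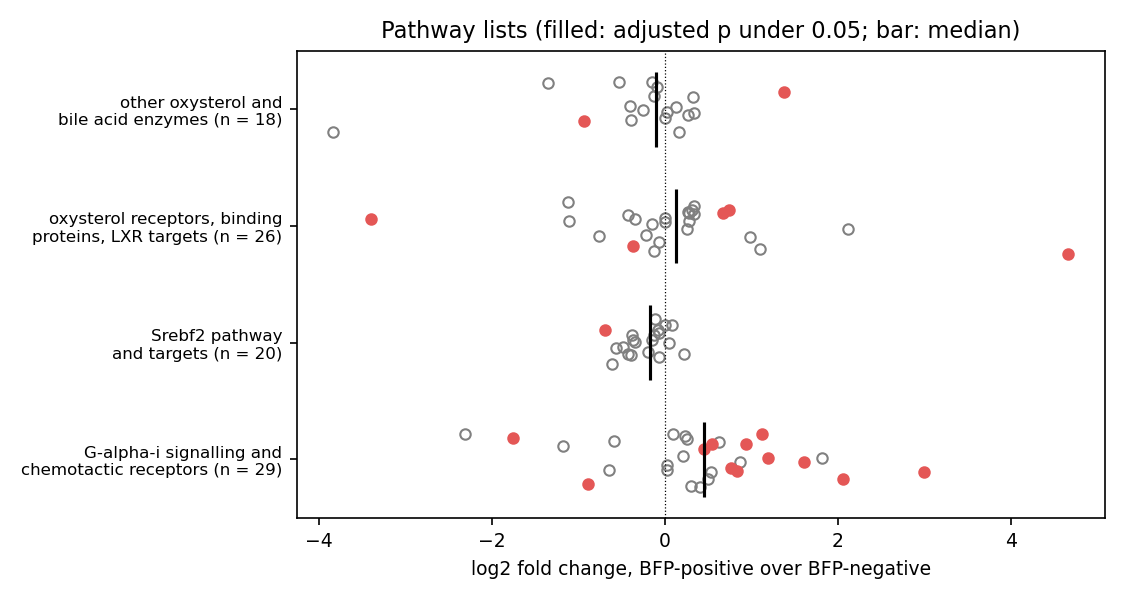
Log2 fold change (BFP-positive over BFP-negative) of each tested gene in the 4 pathway lists; filled points passed an adjusted p of 0.05 in edgeR, open points did not, and black bars are list medians. The medians are -0.11, 0.13, -0.17 and 0.45 from top to bottom. The list of inhibitory G-protein signalling and chemotactic receptors holds 12 of the 20 filled points. It has 29 tested genes, beside 18, 26 and 20 in the lists above it. Over all genes tested, 7.60% passed as higher and 3.51% as lower.

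Markers of other cell types also moved between the populations, beside the members. Over all genes tested, 7.60% passed as higher and 3.51% as lower, and markers below the low-count filter could not pass. Of 14 monocyte and macrophage markers, 11 were tested, 6 rose (Csf1r, Cd14, Lyz2, Fcgr1, Ly6c2 and Ccr2) and 2 fell (Adgre1 and Apoe). Their summed level was 654 and 789.8 CPM in BFP-negative and 1401 and 1552 CPM in BFP-positive libraries, while Mertk and C1qa had no count in any library. Csf1r, the receptor that defines the lineage, had 3 and 0 counts in BFP-negative and 265 and 398 in BFP-positive libraries. Of 14 conventional dendritic cell markers, 13 were tested, 4 rose (Zbtb46, Itgax, Flt3 and Klf4) and 1 fell (Cd8a). Their sums were 2334 and 2276 against 2127 and 2257 CPM.

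Of 15 markers of plasmacytoid dendritic cells, all were tested, 3 rose (Siglech, Irf7 and Runx2) and 4 fell (Ccr9, Ly6d, Klk1 and Cox6a2). Their sums were 24974 and 29739.8 against 21446 and 20561 CPM. Of 8 B cell markers, 5 were tested and 2 fell, among them Cd79a, with sums of 127 and 123 against 96.3 and 101 CPM. Ebf1 and Fcer2a were at 0 in P1 and P2. Of 9 T and NK cell markers, 4 were tested, Cd8b1 fell and no other tested gene passed. Cd3g had no count in any library, and the sums were 494 and 483 against 282 and 262 CPM. Only 2 of the 7 neutrophil markers were tested and neither passed, with sums of 8.44 to 21.8 CPM and Elane and Retnlg at 0 throughout. The part of these cell types in the levels of Cyp7b1, Gpr183, Hsd3b7 and Cyp27a1 was not tested.

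The genes with the most similar pattern to each member were taken by the root mean square difference of centred log2 CPM over the 4 libraries. By that rule the nearest to Cyp7b1 were Mcub, Cacnb3 and Flrt3 (0.057, 0.296 and 0.296), to Hsd3b7 Procr, Slc8a1 and Nqo2 (0.028, 0.058 and 0.059), and to Cyp27a1 Samsn1, Rabl2 and H1f0 (0.039, 0.047 and 0.053). Those of Gpr183 were Fnbp1l, Calm5 and Dmpk (each 0.093), all with 0 counts in both BFP-negative libraries, so the prior count of 2 sets their pattern. It also weighs on the match of Cyp7b1 with Mcub (0 and 0.0789 CPM in N1 and N2) and Flrt3 (0 CPM in both). Their fitted log2 differences were 7.46 and 9.73, beside 5.61 for Cyp7b1. Among genes with a mean of at least 20 CPM, a limit chosen after these values were seen, the nearest to Gpr183 were Rgs1 (0.094), Ifit3 (0.106) and Ckb (0.119). Ckb, a creatine kinase gene, was at 26.1 and 28.5 CPM in N1 and N2 and at 185 and 238 CPM in P1 and P2. With the same limit, the nearest to Cyp7b1 were Cacnb3, Ms4a6b and Anxa2 (0.296, 0.411 and 0.428), and the nearest to Hsd3b7 was Rgs2 (0.060). These genes were picked for their pattern, so it is a description with no test.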

How the data were processed

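Libraries were made with the SMART-Seq v4 kit, which does not mark strand, per the labels' protocols. The deposited table holds the authors' raw counts of 27179 genes, beside per-library log2 RPKM values, which per the file headers are on the log2 scale. Subread, featureCounts, limma, GRCm38 and mm10 are named, per the submitters' processing notes; versions, the treatment of multi-mapped reads and the offset of the log2 RPKM are not given in the sources used here.

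From the counts, genes were kept with filterByExpr (minimum count 10, minimum total 15), scaled by TMM (factors 0.973 to 1.04) and compared with edgeR 4.0.16 (R 4.3.3), glmQLFit and glmQLFTest, modelling the group alone (residual degrees of freedom 2), with two-sided p and Benjamini-Hochberg adjustment over 11706 genes at 0.05; 15473 genes were not tested. SE is the log2 fold change divided by the square root of F. The fits were tested on simulated data. Alternatives were DESeq2 1.42.0, limma-voom 3.58.1, other scalings, no filter, robust dispersion, a replicate block and leaving out each library. Replicates were separate libraries by their counts (chi-square per degree of freedom 18.9 and 14.9).

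The members, gene lists and tests were chosen with earlier results of these data known. Genes named from a list were up to 3 past the threshold with the smallest p in each direction and the most abundant that did not pass; markers, remaining calls and genes near a pattern are named in addition. Of 118 list entries 117 matched the table, Adrbk1 under its current symbol Grk2. Positions are RefSeq on GRCm38 (whole genes), and exon overlaps and lengths are from GENCODE M21. Values of some single list genes are not reported here.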

Additional observations from a re-analysis of the deposited data

How the results depend on the processing

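Cyp7b1, Gpr183, Hsd3b7 and Cyp27a1 were higher in BFP-positive cells under each alternative run. Leaving out single libraries, their log2 differences ran from 5.26 to 6.09, 2.97 to 3.23, 1.04 to 1.67 and 0.86 to 1.25. Ch25h passed no filter and was described only by its counts. With GENCODE lengths, an alternative chosen after the data were seen because the files hold no gene lengths, the mean log2 RPKM was 3.43 and 4.69 for Hsd3b7 (4.04 and 5.29 on the authors' lengths) in BFP-negative and BFP-positive cells, and 0.31 for Cyp27a1 (0.52) in BFP-negative cells; the planned use of lengths from the files was not run.

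Over all genes, 890 were higher and 411 lower; without single libraries these ran from 559 to 921 and from 245 to 408. With the replicate block 760 genes were lower and 1140 higher. Same-numbered libraries also share a title code whose meaning is not given, so they may be paired. Across genes their deviations from the group means had r = 0.06 over 2 pairs, which cannot show that they are unpaired. The main fit models the group alone, and the block was kept as an alternative. Falls among the other oxysterol enzymes numbered 2 with DESeq2 and with the replicate block, and 1 to 2 without single libraries. Falls in the LXR list numbered 1 with DESeq2's size factors and with robust dispersion, and 1 to 3 without single libraries. Falls in the Srebf2 list numbered 3 with library totals and with robust dispersion, 4 with DESeq2 and with limma-voom, 5 with the replicate block, and 0 to 2 without single libraries. In the list of G-protein signalling and chemotactic receptors, 4 to 11 genes rose and 1 to 2 fell without single libraries. The cause of these shifts was not tested. Ch25h and Cyp27a1 rest on few counts, and each group on 2 libraries.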

Other observations

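Pathway genes below the filter on low counts are given here by their counts in N1, N2, P1 and P2, in that order. Nr1h3, which encodes the oxysterol receptor LXR alpha, had 0, 0, 6 and 6 counts. The arrestin gene Arrb1, whose product switches off G-protein-coupled receptors, had 0, 0, 30 and 6 counts. S1pr1, a sphingosine phosphate receptor, had 0, 3, 0 and 14 counts. The cholesterol exporter gene Abca1 had 0, 6, 0 and 15 counts, and Osbpl5, an oxysterol-binding protein gene, had 25, 0, 0 and 0. Like Ch25h, several of these were present in 1 replicate and absent in the other, so no difference between the populations is given for them. Abcg5 and Abcg8 had no count in any library. These genes were chosen after their values were seen.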
